A study of Mus musculus with 4 samples.

Results

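The 31 genes described here encode the enzymes of cholesterol and fatty acid synthesis and the factors that control them, and they were taken by name from the 32285 genes of the deposited tables. They comprise 19 genes of sterol synthesis, 4 genes of its control and of sterol transport (Insig1, Srebf2, Srebf1 and Stard4) and 8 genes of fatty acid synthesis. The measurement was single-cell RNA sequencing of whole mouse ovaries with a 3′ droplet kit, in which each cell's transcripts are counted as unique molecular identifiers (UMIs). The design compared 2 control libraries, labelled Ctrl and WT and described in the methods as Fosl2F/F (homozygous for a Fosl2 allele with LoxP sites around exons 2 to 4), with 2 libraries labelled Fosl2 cKO. The Fosl2cKO mice carry the same floxed alleles and a Cre recombinase driven by the Cyp19a1 promoter, which is active in granulosa cells (GCs), so the deletion is meant for GCs and not for theca or stroma. Mice of both groups were females of 8 weeks from the same litter, with estrus smears, and received no other treatment that the labels name. The study names 2 females per group for this experiment, and the labels do not tie a library to a mouse. If each library is 1 mouse, the p-values below measure the spread between mice and between libraries together.

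Cholesterol is built from acetyl-CoA through mevalonate, farnesyl diphosphate, squalene and lanosterol, and in the ovary it is also the starting material for progesterone, androgen and oestrogen. When sterol in the endoplasmic reticulum runs low, the membrane-bound factors encoded by Srebf1 and Srebf2 are released and switch on most enzymes of both pathways, while the Insig1 product holds them back. Fatty acids are built from the same acetyl-CoA, which Acly supplies outside mitochondria, Acaca carboxylates and Fasn polymerises, before elongases such as Elovl6 and desaturases such as Scd1, Scd2, Fads1 and Fads2 modify the chains.

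After filtering, 6760 to 19575 cells per library remained, with 104304591 to 111314200 UMIs. The second Fosl2F/F library was the largest and the shallowest, with a median of 3656 UMIs per cell against 11177 to 12465 in the other libraries. Pairs of libraries shared 10 to 38 cell barcodes. Summed over all GCs, Fosl2, the targeted gene, stood at 161 and 167 CPM (UMIs of the gene per 1000000 UMIs) in the Fosl2F/F libraries and at 167 and 114 CPM in the Fosl2cKO libraries, and the groups overlapped. The 3′ tags may lie outside the deleted part, so this level does not check the deletion. By immunoblot, the paper reports that Fosl2 protein was depleted in GCs of Fosl2cKO mice. Every direction below is that between the libraries labelled Fosl2cKO and the libraries labelled Fosl2F/F.

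Cells were clustered on variable genes from which the 31 members had been removed, and clusters were named from marker genes. Levels are given for 19 classes, 6 of them subclasses of GCs (glycolytic antral-like, mural-like, cumulus-like, atretic-like, cycling-like and growing follicle-like). For each class the UMIs of all its cells were summed in each library and divided by all UMIs of that class, again as CPM. Unless a single library is named, a level is the mean ± SD over the 4 libraries. A level is compared only with the level of the same gene elsewhere.

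Promoter letters are shown for 4 members that hold CCAAT or ATTGG (Hmgcs1, Insig1, Mvk and Msmo1). Members without these letters, such as Acat2, Fads2, Elovl6 and Acaca, are not shown. RefSeq promoters (GRCm38.p6, 250 bases before to 50 bases after the start of each gene) matched 24 of the 31 members. Capitals mark CCAAT or its reverse complement ATTGG, the letters read by the nuclear factor Y, and CACNCCAC or its reverse complement GTGGNGTG, a core of the sterol regulatory element. Hmgcs1 lies at chr13:119690101-119690400 on the plus strand, Insig1 at chr5:28071162-28071461 on the plus strand, Mvk at chr5:114444019-114444318 on the plus strand and Msmo1 at chr8:64733529-64733828 on the minus strand.
Hmgcs1: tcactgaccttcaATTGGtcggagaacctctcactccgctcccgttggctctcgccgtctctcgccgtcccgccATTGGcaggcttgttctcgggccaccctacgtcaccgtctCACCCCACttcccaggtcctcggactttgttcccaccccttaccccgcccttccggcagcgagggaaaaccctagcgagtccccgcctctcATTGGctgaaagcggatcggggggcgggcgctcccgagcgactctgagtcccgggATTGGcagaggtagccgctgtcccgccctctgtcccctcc
Insig1: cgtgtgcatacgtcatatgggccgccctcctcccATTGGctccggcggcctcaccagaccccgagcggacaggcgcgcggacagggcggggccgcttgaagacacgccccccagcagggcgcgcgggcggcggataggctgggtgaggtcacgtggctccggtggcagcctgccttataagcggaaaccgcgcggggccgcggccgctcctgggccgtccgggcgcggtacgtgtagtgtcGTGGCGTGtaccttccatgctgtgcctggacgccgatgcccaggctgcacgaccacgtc
Mvk: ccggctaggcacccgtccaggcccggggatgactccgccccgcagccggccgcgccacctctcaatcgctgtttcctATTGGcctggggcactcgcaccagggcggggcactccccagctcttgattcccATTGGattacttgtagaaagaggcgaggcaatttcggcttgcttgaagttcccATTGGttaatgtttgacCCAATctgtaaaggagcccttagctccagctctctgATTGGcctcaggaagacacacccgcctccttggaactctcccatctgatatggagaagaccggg
Msmo1: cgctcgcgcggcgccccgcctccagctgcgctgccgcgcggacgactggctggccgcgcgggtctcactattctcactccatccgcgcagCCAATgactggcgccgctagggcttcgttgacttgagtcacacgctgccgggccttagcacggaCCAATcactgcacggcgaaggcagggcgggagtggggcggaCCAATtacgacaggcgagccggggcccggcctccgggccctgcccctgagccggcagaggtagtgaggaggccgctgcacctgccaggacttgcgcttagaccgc

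A gene with several listed promoters was counted once, if any of them held the letters. The CCAAT letters stood in a promoter of 20 of the 24 genes (83.3%), and of 41.1% of the 27025 genes in the whole table. Of the 16 matched sterol genes 15 held them, with 5 copies in Mvk, 4 in Hmgcs1 and 3 in Msmo1, whereas 2 of the 5 matched fatty acid genes (Acly and Fasn) did. GGGCGG or its reverse complement CCGCCC, the GC box, occurred for 79.2% of the matched members and for 38.2% of all genes in the table. The sterol element core occurred in 3 members (Acat2, Hmgcs1 and Insig1), which is 12.5% of those matched against 7.12% of all genes in the table. In Hmgcs1 this core began 136 bases before the start, and in Insig1 it began 9 bases before the start. The letters of these 3 motifs differ, although their sites may overlap in a promoter, and a match describes the sequence only.

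Among the GC subclasses, glycolytic antral-like cells, a class of the antral follicle named from markers such as Ldha, Pgk1 and Ndufa4l2, held the highest mean level of 21 of the 31 members, including 15 of the 19 sterol genes. Mural-like cells, which line the follicle wall, were highest for 8 members (Hmgcs1, Sc5d, Srebf2, Acly, Acaca, Elovl6, Scd1 and Fads2), cumulus-like cells for Ggps1 and atretic-like cells for Hsd17b7. The highest and the second GC subclass overlapped over libraries for 21 of the 31 members, so that 10 had a GC subclass apart from its next. Summed over the 19 sterol genes, the level was 2465, 2044, 1995 and 1869 CPM in glycolytic antral-like cells (Fosl2F/F 1, Fosl2F/F 2, Fosl2cKO 1 and Fosl2cKO 2, the order used throughout). The same sum was 1569, 1383, 1807 and 1383 CPM in mural-like cells and 637 ± 60.2 CPM in cumulus-like cells. Every library thus placed glycolytic antral-like cells above mural-like cells and both above cumulus-like cells. Cycling-like cells, at 1593, 1358, 1391 and 1278 CPM, lay above mural-like cells in Fosl2F/F 1 and below them in the other libraries.

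Between the glycolytic antral-like and cumulus-like classes, 28 of the 31 members had all 4 libraries of the first above all 4 of the second, a pattern shown by 23.9% of the 10606 genes with a mean of at least 5 CPM. Against atretic-like cells, in follicles undergoing degeneration, the count was again 28, beside 20.8% of genes. Against mural-like cells it was 10 (Acat2, Mvk, Mvd, Idi1, Fdps, Sqle, Lss, Tm7sf2, Nsdhl and Ebp, all sterol genes), beside 15.9% of genes, and 2 members (Acaca and Elovl6) lay wholly below, beside 10.6% of genes.

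**Figure D1:**
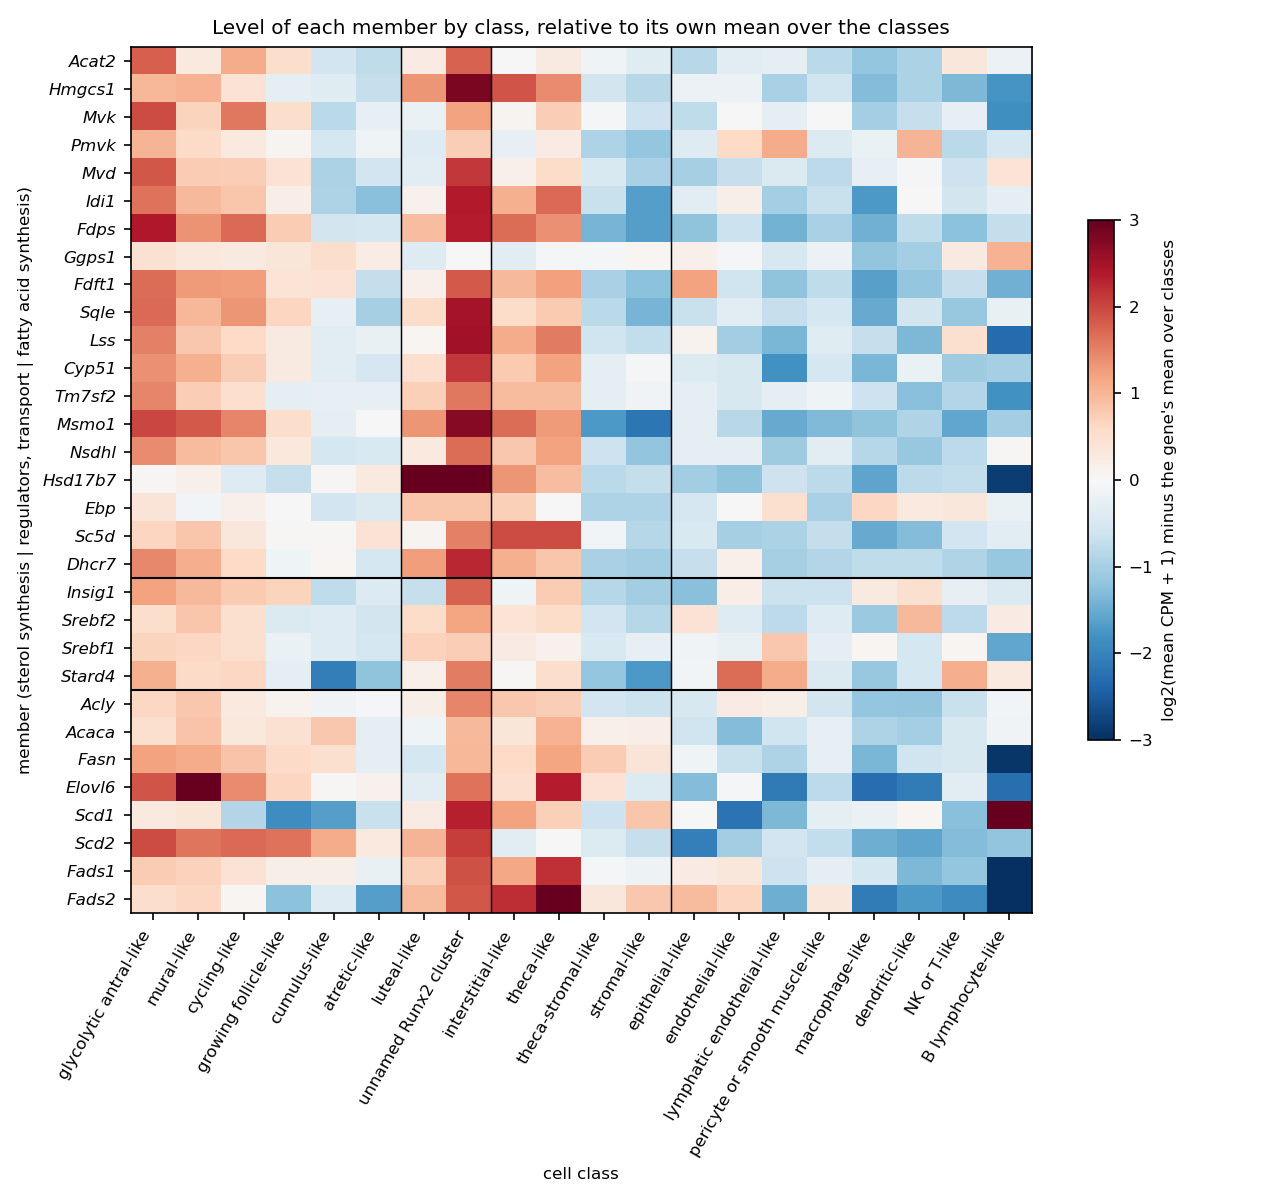
Level of each member (rows) in the 19 classes and in the unnamed Runx2 cluster (columns), as log2(mean CPM + 1) minus the gene's own mean over these columns, in red where higher and in blue where lower. Most sterol genes are red in the glycolytic antral-like, mural-like, interstitial-like and theca-like columns and in the Runx2 cluster, while Hsd17b7 has its named maximum in luteal-like cells (594 CPM) and Scd1 in B lymphocyte-like cells (292 CPM).

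Sterol genes of the early pathway differed in where they were highest. Hmgcs1, which makes the precursor of mevalonate, was highest in interstitial-like cells, the steroid-making cells between follicles, at 454, 447, 436 and 444 CPM. These 4 values lay within a narrow band and above every theca-like library (373, 287, 372 and 269 CPM). Acat2, which joins acetyl-CoA units, and Mvd, which decarboxylates the mevalonate diphosphate, were highest in glycolytic antral-like cells at 56.7 ± 13.3 and 48.0 ± 8.64 CPM, and each lay wholly above its next class.

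Fdps, which makes farnesyl diphosphate, measured 613, 460, 416 and 376 CPM in glycolytic antral-like cells, 253, 218, 270 and 158 CPM in mural-like cells, 59.5 ± 12.7 CPM in cumulus-like cells and 27.2 ± 12.9 CPM in stromal-like cells. No library of the glycolytic antral-like class overlapped any of the other GC subclasses for this gene. Ggps1, which diverts farnesyl diphosphate to protein prenylation, behaved differently. Its highest mean was in B lymphocyte-like cells (145 ± 21.1 CPM), a class of only 24 to 47 cells per library. Its next was in cumulus-like cells (100.7 ± 7.32 CPM).

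From squalene onwards the glycolytic antral-like class was again high. Sqle, which oxidises squalene, measured 104, 97.0, 98.4 and 87.9 CPM there and did not overlap cycling-like cells, the next class at 74.3 ± 7.13 CPM. Msmo1, a C4 demethylase, measured 318 ± 35.4 CPM there and 284 ± 53.0 CPM in mural-like cells, and these overlapped. It fell to 16.6 ± 5.90 CPM in stromal-like cells, the lowest of the 19 classes. Cyp51, the lanosterol demethylase, stood at 141 ± 14.7 CPM in glycolytic antral-like and 125 ± 9.36 CPM in theca-like cells, which also overlapped. Lss, the lanosterol-forming cyclase, and Idi1, the isopentenyl diphosphate isomerase, had nearly the same mean in theca-like and glycolytic antral-like cells, at 13.6 ± 4.10 and 13.1 ± 1.95 CPM for Lss and 115 ± 30.4 and 111 ± 14.8 CPM for Idi1.

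Sc5d, a late desaturase, was highest in interstitial-like and theca-like cells, at 197 ± 58.3 and 196 ± 45.8 CPM, against 88.7 ± 15.4 CPM in mural-like cells. Hsd17b7, whose product reduces a late sterol ketone and can also convert oestrone to oestradiol, was the sterol gene most tied to luteal-like cells, at 159, 175, 477 and 1566 CPM. The lowest of those libraries lay above every interstitial-like library (79.2, 45.4, 24.04 and 83.5 CPM), the next class in order. Across the 31 members, the highest and the second class overlapped over libraries for 22, so that for most members only a group of high classes and not a single class can be named. The 9 members whose highest class lay wholly above the second were Acat2, Hmgcs1, Mvd, Fdps, Ggps1, Sqle, Hsd17b7, Scd1 and Fads2. For Acat2 and Fdps, however, only 17 and 16 of the 18 other classes lay wholly below the highest, since a class further down the order of means had 1 or more high libraries (Fdps in interstitial-like Fosl2F/F 1, for example, at 607 CPM).

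Outside GCs, the sterol sum was high in interstitial-like cells (2446, 1415, 1588 and 1757 CPM), theca-like cells (2202, 1330, 1705 and 1445 CPM) and luteal-like cells (1422, 1149, 1767 and 2774 CPM). It was lowest in macrophage-like cells (339 ± 85.0 CPM) and stromal-like cells (389 ± 74.0 CPM). Theca-like cells, which make androgen, had 24 of 31 members wholly above theca-stromal-like cells, beside 16.1% of genes. As a rough measure of free RNA in the droplets, 7 genes of steroid synthesis were summed in NK or T-like cells, which should lack them. The sum was 501, 1240, 384 and 290 CPM, highest in the second Fosl2F/F library. Over all cells it was 3746, 5621, 4041 and 3294 CPM, highest in that library too. The measure therefore does not separate more free RNA from free RNA richer in these genes. The sterol sum in NK or T-like cells, 436, 625, 395 and 339 CPM, was highest in the same library, and how much of a low level came from free RNA was not tested.

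The 8 fatty acid genes were highest in 5 classes, with 3 in theca-like cells (Acaca, Fads1 and Fads2), 2 in glycolytic antral-like cells (Fasn and Scd2) and 1 each in mural-like, interstitial-like and B lymphocyte-like cells. Elovl6, which lengthens palmitate, measured 805, 484, 487 and 475 CPM in mural-like cells and 488, 323, 231 and 408 CPM in theca-like cells. The first Fosl2F/F library was highest in both, and the 2 classes overlapped, whereas every mural-like library lay above every glycolytic antral-like library (334, 218, 265 and 234 CPM). Acaca, the carboxylase that commits acetyl-CoA to fatty acids, was likewise higher in mural-like (151 ± 16.2 CPM) than in glycolytic antral-like cells (115 ± 11.3 CPM), with no overlap.

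Fads2, the desaturase of the first step to long polyunsaturated chains, measured 1005, 313, 258 and 395 CPM in theca-like cells. One library set most of its mean of 492 ± 346 CPM, but even the lowest theca-like library lay above every interstitial-like library (125 ± 33.2 CPM). Its partner Fads1 followed the same order, with 184, 57.6, 76.8 and 83.0 CPM in theca-like cells and 48.7 ± 13.5 CPM in interstitial-like cells, and there the libraries overlapped.

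The stearoyl-CoA desaturases, which place the first double bond, differed in place. Scd2 was highest in glycolytic antral-like cells (555, 647, 770 and 689 CPM) and lowest in epithelial-like cells (40.1 CPM), whereas Scd1 was highest in B lymphocyte-like cells (256, 247, 308 and 357 CPM) and reached only 21.2 ± 8.03 CPM in its next class, interstitial-like cells. The B lymphocyte-like values of Scd1 rest on 28, 8, 20 and 39 UMIs. The leading classes of Acly overlapped, at 154 ± 13.0 CPM in interstitial-like and 152 ± 27.0 CPM in mural-like cells, and its lowest level was 37.9 CPM in dendritic-like cells. Those of Fasn also overlapped, at 56.4 ± 12.3 CPM in glycolytic antral-like and 55.5 ± 12.6 CPM in theca-like cells, and its lowest level was 2.29 CPM in B lymphocyte-like cells.

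**Figure D2:**
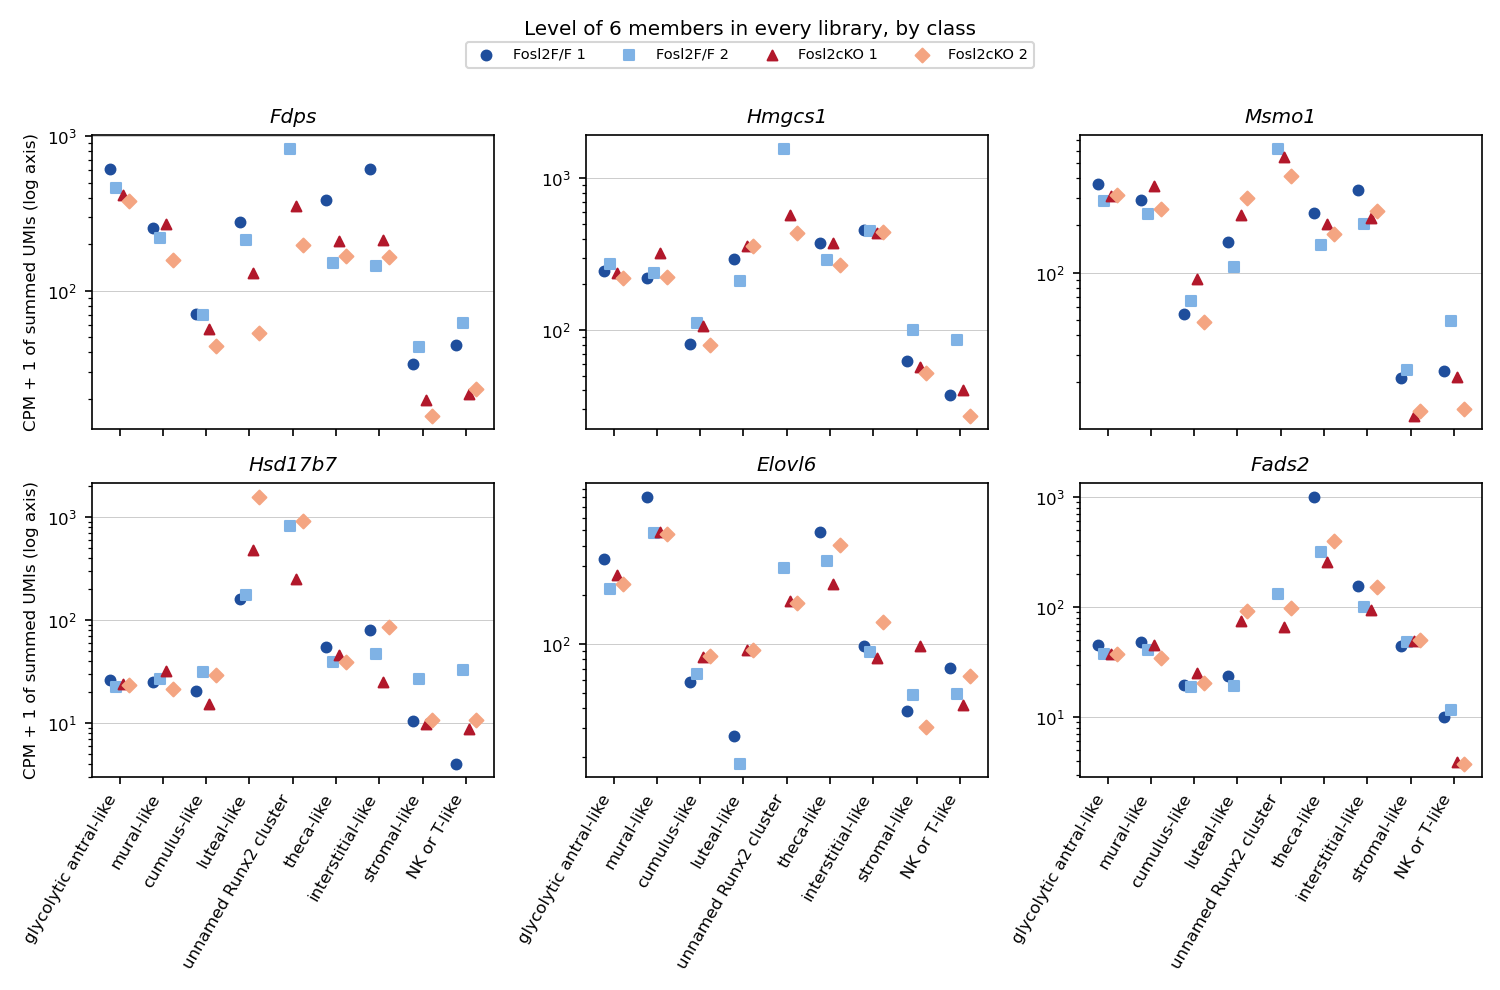
Level of 6 members (Fdps, Hmgcs1, Msmo1, Hsd17b7, Elovl6 and Fads2) in each library, as CPM + 1 on a log axis, for 8 classes and the unnamed Runx2 cluster, with 1 point per library. The Hmgcs1 points of interstitial-like cells nearly coincide at 436 to 454 CPM, while those of Fads2 in theca-like cells run from 258 to 1005 CPM and those of Hsd17b7 in luteal-like cells from 159 to 1566 CPM.

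Of the regulators, Insig1, which retains the sterol sensor in the endoplasmic reticulum, measured 104, 130, 103 and 121 CPM in glycolytic antral-like cells and 28.6 ± 5.92 CPM in cumulus-like cells, with no overlap. Srebf2, the main factor for sterol genes, was highest in dendritic-like (119 ± 23.0 CPM) and mural-like cells (109 ± 15.9 CPM), and Srebf1, the main factor for fatty acid genes, in lymphatic endothelial-like (27.7 ± 11.8 CPM) and luteal-like cells (25.5 ± 7.53 CPM). For both factors these 2 leading classes overlapped over libraries. For Srebf1, 0 of the 18 other classes lay wholly below the highest, so no class can be named for it. Stard4, which carries cholesterol between membranes, was highest in endothelial-like cells (37.8 ± 7.25 CPM) and lowest in cumulus-like cells (1.92 ± 0.735 CPM).

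Other genes of these pathways, 26 in number, were read in the same way. Among the 19 classes Scarb1, the receptor that takes cholesterol esters from high-density lipoprotein, was highest in luteal-like cells (1033, 1512, 1038 and 887 CPM). These values overlapped those of theca-like cells (1019, 822, 531 and 807 CPM). The unnamed Runx2 cluster described below measured 2283, 1037 and 1263 CPM in Fosl2F/F 2, Fosl2cKO 1 and Fosl2cKO 2. Me1, which supplies NADPH for lipid synthesis, stood at 2117, 2709, 3814 and 2032 CPM in interstitial-like cells, and Soat1, which esterifies cholesterol for storage, at 899 ± 153 CPM in theca-like cells.

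An unnamed cluster led by Runx2 and carrying Lhcgr held 898, 317 and 271 cells in Fosl2F/F 2, Fosl2cKO 1 and Fosl2cKO 2 but 7 cells in Fosl2F/F 1, which was left out of its means. It had the highest sterol sum of any cell group, at 5982, 2940 and 2816 CPM. Hmgcs1 measured 1566, 574 and 438 CPM there, Msmo1 615, 542 and 413 CPM, and Hsd17b7 817, 249 and 915 CPM. The Fosl2F/F library was the highest of the 3 for Hmgcs1 and Msmo1 and not for Hsd17b7. With 1 usable Fosl2F/F library, the cluster was not tested between groups.

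Members of the sterol list were compared with one another over the 76 points given by 19 classes in 4 libraries, on log2(CPM + 1). These points share libraries and depth, and the correlations are descriptions. Each member's Pearson r with the mean of the other sterol genes was highest for Msmo1 (0.90) and Fdps (0.84) and lowest for Ggps1 (0.12), Ebp (0.33), Pmvk (0.38) and Hsd17b7 (0.54). Among the fatty acid genes, Elovl6 had 0.82 and Scd1 -0.19. Of 11739 other genes, those most like the sterol mean included Atp5j (0.88), Slc25a3 (0.87) and Tecr (0.85), and those most like the fatty acid mean were Rnd2 (0.88), Aff2 (0.85), Camk2g (0.85) and Prkci (0.85).

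Which library was highest was uneven for these genes. In theca-like cells the first Fosl2F/F library was the highest of the 4 for 23 of 31 members, against 26.6% of the 10502 genes read there, and in interstitial-like cells for 21, against 31.6% of genes. In glycolytic antral-like cells it was the highest for 20, against 29.9% of genes. In mural-like cells Fosl2cKO 1 was the highest for 20, against 24.9%. In stromal-like cells Fosl2F/F 2, the library highest for genes of steroid synthesis in NK or T-like cells, was the highest for 15, against 15.3%.

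**Figure D3:**
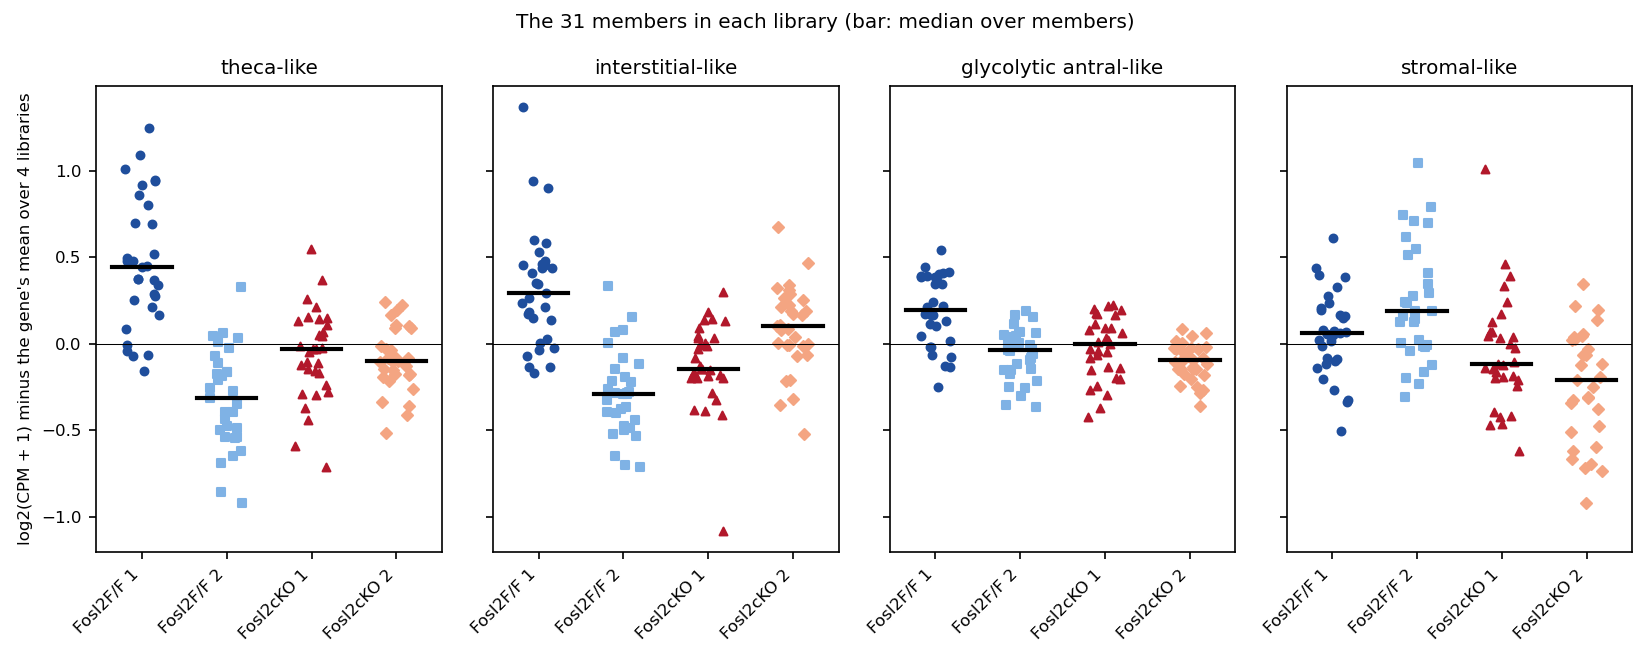
The 31 members in each of the 4 libraries within 4 classes, as log2(CPM + 1) minus the gene's mean over the libraries, with 1 point per member and a bar at the median. In theca-like and interstitial-like cells the first Fosl2F/F library lies highest (23 and 21 of 31 members) and the second Fosl2F/F library lowest by its median, so the groups are not separated there.

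Between the groups, no member passed the threshold in GCs taken as a whole, in the 2 GC subclasses tested, or in theca-like, interstitial-like or stromal-like cells. In luteal-like cells 10 of 31 members passed it, beside 10.4% of the 10558 genes tested there. The threshold was an adjusted p under 0.1 (edgeR quasi-likelihood test with Benjamini-Hochberg adjustment over all genes) and a log2 fold change above 0.25 in size. All 31 members were tested in each class. Fold changes are Fosl2cKO over Fosl2F/F.

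**Figure D4:**
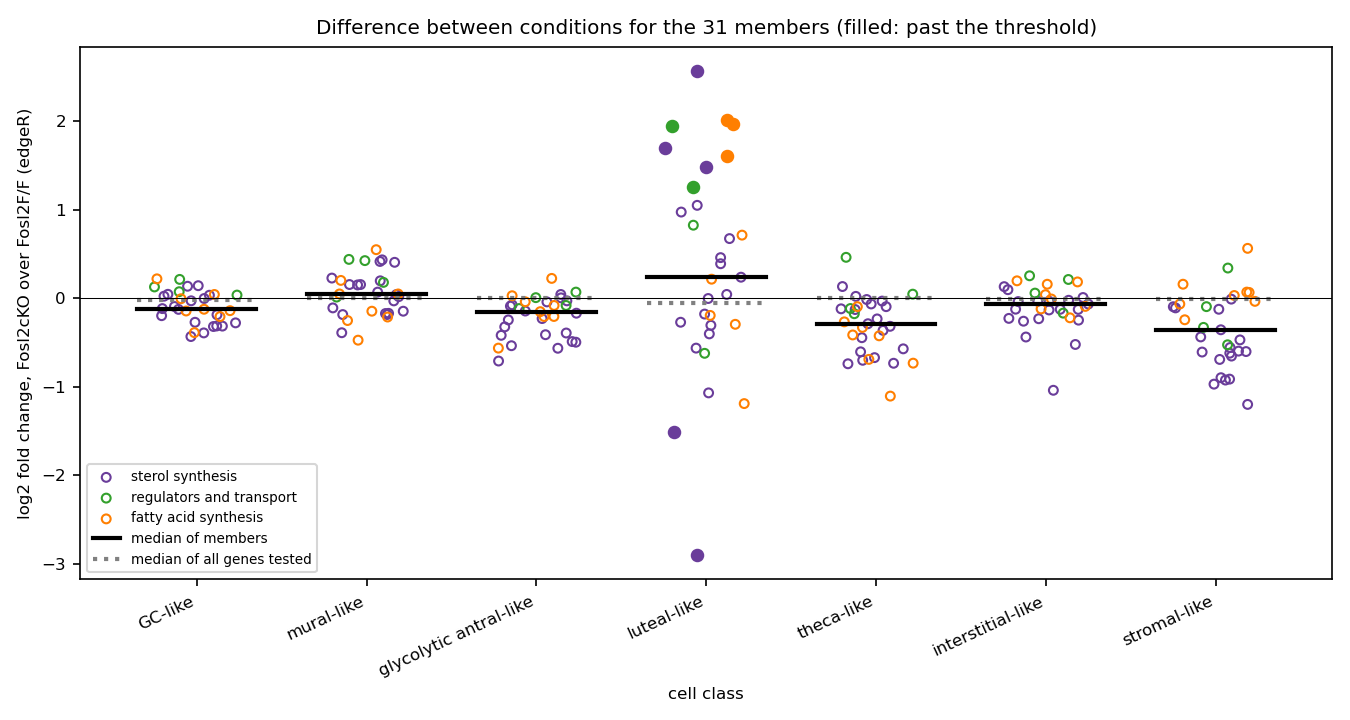
The log2 fold change of each member (points, coloured by list) between Fosl2cKO and Fosl2F/F in 7 classes, filled where past the threshold, with the median over members (black bar) and over all genes tested (dotted bar). The filled points are the 10 members in luteal-like cells, from -2.90 for Dhcr7 to 2.57 for Hsd17b7, and in the other 6 classes every point lies between -1.20 and 0.56.

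In GCs as a whole the threshold was passed by 0 of 31 members and by 0.00579% of 17264 genes. None of the members had an unadjusted p under 0.05, as 810 genes had, and DESeq2 called 183 genes and 0 members. Both Fosl2cKO libraries lay above both Fosl2F/F libraries for 2 members (Scd2 and Insig1), as they did for 17.0% of genes, and below them for 3, as for 14.6% of genes. The member median was -0.12 on the log2 scale beside -0.02 for all genes, and it turned to 0.13 without Fosl2F/F 1 and to 0.02 without Fosl2cKO 2. Scd2 had a log2 fold change of 0.22, and Mvk, the mevalonate kinase, and Fdft1, the squalene synthase, had -0.32 and -0.31. Without Fosl2F/F 1 these were -0.04 and -0.07, and without Fosl2F/F 2 they were -0.53 and -0.51. Of the granulosa markers, Inha (7314, 4592, 4049 and 3924 CPM), Inhba and Cyp19a1 were lower in both Fosl2cKO libraries. Amh (133, 185, 249 and 236 CPM) was higher, and the groups overlapped for the rest. The 7 genes of steroid synthesis summed to 2370, 1626, 1508 and 1225 CPM. The part of these shifts in the members' values was not tested.

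In glycolytic antral-like cells 9 members lay lower in both Fosl2cKO libraries than in both Fosl2F/F libraries, while 15.9% of all genes did, and 2 members (Scd2 and Stard4) lay higher, while 25.4% of genes did. Acat2 measured 72.9 and 60.3 CPM in Fosl2F/F and 41.3 and 52.4 CPM in Fosl2cKO. Fdps measured 613 and 460 CPM against 416 and 376 CPM. In both genes the groups were apart, but by less than the distance between the 2 Fosl2F/F libraries. The log2 fold changes were -0.57 for Acat2, -0.54 for Pmvk, -0.50 for Fdps, -0.49 for Mvk and -0.41 for Fdft1, with adjusted p from 0.54 to 0.61. Without Fosl2F/F 1 they were -0.33 for Pmvk, -0.25 for Fdps, -0.31 for Mvk and -0.14 for Fdft1, and without Fosl2F/F 2 they were -0.71, -0.71, -0.64 and -0.64. No member was called, as 0.00761% of 13137 genes were, while 5 members and 1173 genes had an unadjusted p under 0.05 and DESeq2 called 151 genes and 0 members. The member median was -0.15, beside 0.00 for all genes, and it was -0.04 without Fosl2F/F 1 and -0.32 without Fosl2F/F 2. Of the 9 granulosa markers, Amh (16.1, 80.1, 239 and 129 CPM) and Amhr2 were higher in both Fosl2cKO libraries in this class, and Inha (10379, 7214, 5950 and 5845 CPM) and Cyp19a1 were lower. Of markers of other cell types, 3 of 4 luteal markers (Akr1c18, Ptgfr and Sfrp4), Cyp17a1 of theca and Cyp11a1 of the interstitium were lower in both, and the 7 genes of steroid synthesis summed to 2978, 2081, 1997 and 1969 CPM. The dissociation genes, 12 in number, summed to 6801, 6562, 4904 and 5866 CPM and were also lower, and the part of these shifts in the members' values was not tested.

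In mural-like cells the member median was 0.05 beside 0.00 for all genes. Without Fosl2cKO 1 the median was -0.11, and without Fosl2F/F 2 it was 0.00 beside 0.02 for all genes. Without Fosl2F/F 1 it was 0.17, and without Fosl2cKO 2 it was 0.18. With the pathway genes kept among the clustering features it was 0.01 beside 0.01. Higher values in both Fosl2cKO libraries were found for 9 members (19.8% of 11755 genes) and lower values for 2 members, Pmvk and Acaca (12.2% of genes). Cyp51 measured 89.2 and 101.4 CPM in Fosl2F/F and 153 and 112 CPM in Fosl2cKO, a log2 fold change of 0.43 that was 0.19 without Fosl2cKO 1. Insig1 measured 67.7 and 96.9 CPM against 126 and 100.7 CPM, a log2 fold change of 0.42, and Sqle 54.5 and 44.3 CPM against 70.6 and 65.8 CPM, a log2 fold change of 0.41. For Insig1 the value was 0.17 without Fosl2F/F 1, 0.69 without Fosl2F/F 2, 0.26 without Fosl2cKO 1 and 0.20 with the pathway genes kept among the clustering features. All 3 genes had an adjusted p of 0.998, so none of these differences was shown to exceed the spread between libraries. No member and 0.0255% of genes were called, no member and 595 genes had an unadjusted p under 0.05, and DESeq2 called 54 genes and 0 members. Acaca, at 172 and 151 against 133 and 149 CPM, had a log2 fold change of -0.25, which was -0.16 without Fosl2F/F 1 and -0.17 without Fosl2cKO 1. Among the markers of the class, Lhcgr (858, 429, 229 and 196 CPM) and 2 of the 9 granulosa markers, Inha (13044, 8973, 6806 and 6652 CPM) and Inhba (6007, 3980, 3253 and 3804 CPM), were lower in both Fosl2cKO libraries. So were 3 of 4 luteal markers (Akr1c18, Ptgfr and Sfrp4), Hao2 of the interstitium and the sum of the 7 genes of steroid synthesis (5974, 4259, 3890 and 4075 CPM). Their part in the members' values was not tested.

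In luteal-like cells the Fosl2cKO libraries were higher for 8 called members and lower for 2, while 10.4% of 10558 genes were called. An unadjusted p under 0.05 was found for 12 members and 2017 genes, and DESeq2 called 577 genes and 7 members. Hsd17b7 measured 159 and 175 CPM in Fosl2F/F and 477 and 1566 CPM in Fosl2cKO (log2 fold change 2.57, adjusted p = 0.000315). Elovl6 measured 26.0 and 17.2 CPM against 90.1 and 90.7 CPM (2.01, adjusted p = 0.000583), Fads2 22.9 and 18.1 CPM against 74.2 and 90.7 CPM (1.97), and Cyp51 38.8 and 30.95 CPM against 122 and 114 CPM (1.70). For these 4 genes the groups were wide apart, and for Elovl6 and Cyp51 the libraries of one group lay close together. Fads1, Idi1 and Insig1 rose by 1.61, 1.48 and 1.26 on the log2 scale, and Stard4 by 1.95 on counts of 7 and 14 UMIs in the Fosl2cKO libraries. Of 12 alternatives that kept the Runx2 cluster apart, Idi1 was called under 10, Stard4 under 6 and Insig1 under 4.

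Sterol genes did not move together in luteal-like cells. The median log2 fold change was 0.04 over the sterol list and 0.46 over the fatty acid list. Dhcr7, the last reductase of the pathway, measured 88.2 and 95.6 CPM in Fosl2F/F and 13.2 and 12.3 CPM in Fosl2cKO, on 5 and 8 UMIs (log2 fold change -2.90, adjusted p = 5.43e-05). Fdps measured 276 and 211 CPM against 130 and 52.3 CPM (-1.52, adjusted p = 0.0154). Both genes were lower in each Fosl2cKO library than in each Fosl2F/F library. The median over the 31 members was 0.24, beside -0.05 for all genes, and it ran from 0.10 without Fosl2cKO 1 to 0.60 without Fosl2F/F 1, where 26 members were tested. In total 14 members lay higher in both Fosl2cKO libraries (26.0% of genes) and 4 lay lower (23.4% of genes). Of the 24 other pathway genes tested there, 4 passed the threshold, beside 10.4% of all genes. Elovl5 rose by 2.64, Mylip rose by 1.13 and Me1 fell by 1.34 on the log2 scale.

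The luteal-like class was small and uneven, holding 166 and 346 cells of the control libraries against 17 and 38 of Fosl2cKO. Its defining markers moved with the groups. Akr1c18, which inactivates progesterone, measured 2651, 2288, 170 and 1.54 CPM, Sfrp4 measured 6462, 3727, 1277 and 1543 CPM, Parm1 measured 41.1, 39.2, 10.6 and 7.68 CPM, and Ptgfr, the receptor for prostaglandin F, measured 1918, 2353, 1232 and 1621 CPM. All 4 luteal markers were lower in both Fosl2cKO libraries. Higher in both were 4 of the 9 granulosa markers (Amh, Amhr2, Foxl2 and Serpine2), with Amhr2 at 45.7, 31.9, 138 and 64.5 CPM and Serpine2 at 223, 83.4, 347 and 255 CPM. So were 2 of the 5 theca markers, Aldh1a1 (116, 136, 246 and 211 CPM) and Mgarp (235, 184, 297 and 277 CPM). Of the 5 interstitial markers, 4 were lower in both (Abcb1b, Cyp11a1, Hao2 and Star). Star measured 713, 1099, 84.8 and 24.6 CPM and Cyp11a1 6126, 8568, 3430 and 2102 CPM. For the fifth, Hsd3b1 (1382, 1921, 1441 and 1111 CPM), the groups overlapped. The 7 genes of steroid synthesis summed to 10814, 15713, 6368 and 4317 CPM. The 12 genes of the response to tissue dissociation summed to 6474, 13859, 15962 and 17978 CPM. The part of these shifts in the 10 calls was not tested.

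The calls also depended on where the class was drawn. When the cells of the Runx2 cluster were added to the luteal-like class, a step chosen after seeing the data, 0 members were called. The count over all genes in that grouping is not given here, so the fall for members cannot be set beside it. Elovl6 then stood at 26.8, 237, 178 and 169 CPM and Hsd17b7 at 159, 687, 261 and 981 CPM. In that grouping the second Fosl2F/F library was no longer like the first. A change of cell makeup within the class and a change within cells cannot be told apart. Without the second Fosl2cKO library the log2 fold changes were 1.45 for Hsd17b7, 1.81 for Stard4, 1.24 for Insig1 and -0.97 for Fdps. Without the first, Fdps was at -2.28. Hsd17b7 and Fdps were each called under 11 of the 12 other alternatives. Cyp51, Dhcr7, Elovl6, Fads1 and Fads2 were called under all 12 other alternatives.

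**Figure D5:**
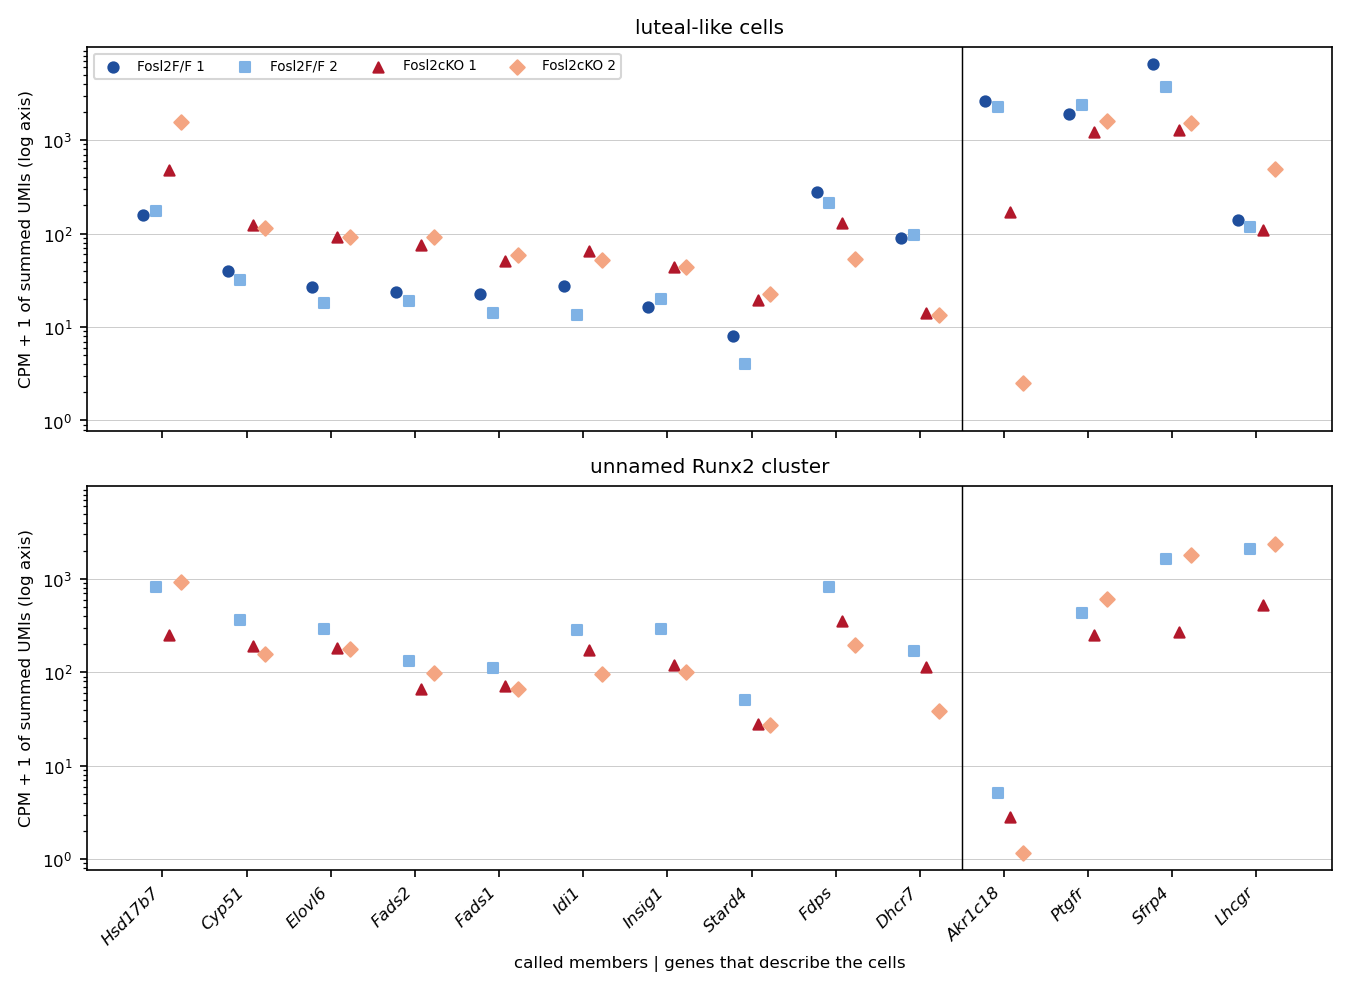
The 10 called members and 4 genes that describe the cells (Akr1c18, Ptgfr, Sfrp4 and Lhcgr), as CPM + 1 on a log axis, in luteal-like cells (top) and in the unnamed Runx2 cluster (bottom), with 1 point per library and the 7 cells of Fosl2F/F 1 left out below. In the top panel Elovl6 separates the groups (26.0 and 17.2 against 90.1 and 90.7 CPM) and so does Akr1c18 (2651 and 2288 against 170 and 1.54 CPM), while in the bottom panel Fosl2F/F 2 is the highest library for Cyp51 and Elovl6.

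In theca-like cells 27 of 31 members had a negative fold change, with a median of -0.29 beside 0.00 for all genes. Without Fosl2F/F 1 only 8 did, and the median was 0.12. Without Fosl2F/F 2 the negative members numbered 29, and the median was -0.57. The groups overlapped for every member, while 19.9% of 12669 genes were higher and 10.3% lower in both Fosl2cKO libraries. Fads2 measured 1005 and 313 CPM in Fosl2F/F and 258 and 395 CPM in Fosl2cKO, and its log2 fold change of -1.11 rested on the first Fosl2F/F library, without which it was 0.02. No member was called, as 0.0316% of genes were, no member and 494 genes had an unadjusted p under 0.05, and DESeq2 called 28 genes and 0 members. Cyp17a1, the enzyme of androgen synthesis that defines theca, measured 4293, 2258, 56.7 and 1929 CPM in this class. It was lower in both Fosl2cKO libraries, and Fosl2cKO 1 stood apart for it. Lower in both as well were 3 of 4 luteal markers (Akr1c18, Ptgfr and Sfrp4). So was the sum of the 7 genes of steroid synthesis (17828, 11610.5, 8772 and 10415 CPM). Of the 5 theca markers, Fosl2cKO 1 was also lowest for Insl3 (5.04, 9.09, 4.402 and 7.45 CPM) and was highest for Aldh1a1 (2368, 1691, 2881 and 1793 CPM) and Mgarp (884, 640, 1169 and 536 CPM). It was also lowest for Lhcgr (1024, 437, 210 and 444 CPM), the receptor for luteinising hormone, and highest for 2 of the 5 interstitial markers, Abcb1b (10.3, 45.8, 146 and 25.8 CPM) and Hao2 (175, 174, 324 and 155 CPM). Fosl2F/F 1 was the highest library in this class for 8 of the 9 granulosa markers, with Inha at 1389, 491, 238 and 421 CPM and Inhba at 165, 27.9, 31.6 and 40.7 CPM, and 3 of them (Cyp19a1, Inha and Serpine2) were lower in both Fosl2cKO libraries. The part of these shifts in the members' values was not tested.

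In interstitial-like cells, 1 member was higher (Srebf2, 16.6% of 13501 genes) and 1 lower (Hmgcs1, 11.7% of genes) in both Fosl2cKO libraries. The median over members was -0.07, beside -0.01 for all genes, and it was 0.31 without Fosl2F/F 1 and -0.31 without Fosl2F/F 2. No member was called, as 0.222% of genes were, 1 member and 601 genes had an unadjusted p under 0.05, and DESeq2 called 43 genes and 0 members. That member was Fdps, with 607 and 144 CPM in Fosl2F/F and 213 and 163 CPM in Fosl2cKO (log2 fold change -1.04). Its groups overlapped, and its direction turned to 0.38 without the first Fosl2F/F library. Without the second Fosl2F/F library the log2 fold change of Fdps was -1.75, with Dhcr7 at -1.07 and Nsdhl at -1.16. Fosl2F/F 1 was also the highest library for 6 of the 9 granulosa markers in this class, and 5 of the 9 (Amh, Amhr2, Inhba, Inhbb and Serpine2) were lower in both Fosl2cKO libraries. Of the 5 interstitial markers Abcb1b and Hsd3b1 were higher in both, and Cyp17a1 measured 93.5, 83.6, 0.315 and 98.0 CPM. The part of these shifts in the members' values was not tested.

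In stromal-like cells, where sterol genes are near their lowest, 11 members were lower in both Fosl2cKO libraries (14.4% of 14102 genes) and 1 was higher (Fads2, 14.2% of genes). The median over members was -0.36, beside -0.01 for all genes, with 25 of 31 members negative. It ran from -0.51 to -0.24 when 1 library was left out. Over the sterol list it was -0.60, and over the fatty acid list it was 0.05. Fdps measured 32.9 and 42.5 CPM in Fosl2F/F and 18.8 and 14.6 CPM in Fosl2cKO, with the groups apart (log2 fold change -1.20, adjusted p = 0.25). Hmgcs1 measured 61.1 and 99.8 CPM against 56.3 and 50.9 CPM (-0.61), and Cyp51 68.6 and 51.3 CPM against 45.4 and 45.3 CPM (-0.44). The value of Hmgcs1 was -0.23 without Fosl2F/F 2 and that of Cyp51 was -0.16 without Fosl2F/F 1. No member was called, as 0.184% of genes were, 5 members and 585 genes had an unadjusted p under 0.05, and DESeq2 called 44 genes and 0 members. The 7 genes of steroid synthesis, which stroma should lack, summed to 458, 991, 484 and 298 CPM there, and the part of free RNA in these differences was not tested. Without Fosl2cKO 1, the log2 fold changes were -1.43 for Fdps and -1.63 for Idi1.

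Whether the difference between groups in GCs was unlike that in other cells was tested with 1 term for the difference between differences. It was past the threshold for 0 of 31 members and for 0% of 19641 genes (edgeR quasi-likelihood test), while 1 member and 546 genes had an unadjusted p under 0.05 and DESeq2 was not run for this term. That member was Fdps, whose log2 fold change was 0.87 higher in GCs than in other cells (unadjusted p = 0.028). In all 27 of 31 members had a positive value, with a median of 0.29 beside -0.03 for all genes. Without Fosl2F/F 2 only 12 were positive, and the median was -0.15. Other cells here are all cells outside the clusters named as GCs, luteal-like cells among them. The labels do not say which classes carry the deletion, so the term does not compare deleted with undeleted cells. The sum over other cells also holds the Runx2 cluster, which has 7 cells in Fosl2F/F 1 and 898 in Fosl2F/F 2.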

How the data were processed

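The deposited matrices of UMI counts per gene and cell, 1 for each of 4 libraries, were used. The authors made these counts from droplet reads with Cell Ranger (7.1.0 per the file headers, another version in the methods) on GRCm38, and the submitters' notes also list Seurat 4.1.0. The methods name CellBender for taking out ambient RNA, and whether the deposited matrices are its output is not given in the sources used here. Cells with at least 500 genes, more than 1000 UMIs, under 10% mitochondrial and under 0.1% haemoglobin UMIs were kept, and the cells with the highest Scrublet scores (scanpy 1.11.5) were removed at 0.8% per 1000 cells. Libraries were log-normalised and integrated by reciprocal principal components in Seurat 5.3.0 (3000 features, 30 components, Louvain resolution 0.8, and 0.5 for GCs). The 31 members and 26 other pathway genes were left out of the features. This integration stands in place of the SCTransform step that the methods name.

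A class was described where each library had at least 20 cells, except that luteal-like cells (17 in Fosl2cKO 1) were kept. UMIs were summed per class and library, which covers counting error and the spread between libraries but not that between cells. Sums were tested with the edgeR 4.0.16 quasi-likelihood test (filterByExpr, TMM, Benjamini-Hochberg, R 4.3.3), with DESeq2 1.42.0 as an alternative. Simulated counts held 200 genes changed by 2-fold. This test found 26.5% of them in GCs, 12.5% in mural-like, 46.0% in glycolytic antral-like and 4.0% in luteal-like cells. It found 4.5% in theca-like, 29.0% in interstitial-like and 0.0% in stromal-like cells. Calls of unchanged genes numbered 35, 16, 19, 0, 4, 8 and 0 in the same order. In each class the text names the members past the threshold and, of the rest, up to 5 each way with the largest difference, no overlap and a mean of at least 20 CPM. Members named outside this rule (such as Fdps in interstitial-like and Fads2 in theca-like cells) were chosen after their values were seen. The members and lists were chosen with earlier results of these data known. Results for a few of the other genes are not reported here.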

Additional observations from a re-analysis of the deposited data

Results flagged for a closer look

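For 4 members the groups stood apart in opposite directions in 2 classes, with both Fosl2cKO libraries above both Fosl2F/F libraries in one class and below them in the other. These were 4 of the 25 members with a mean of at least 20 CPM in at least 2 of 6 classes, and 11.4% of the 7747 genes that met the same minimum showed the pattern. These shares were not compared by a test, so the pattern is not shown to be more frequent among members than among all genes. The difference between classes was not tested in any of the 4 members, and cells of both classes came from the same 4 libraries. For Cyp51 the log2 fold change was 2.14 higher in luteal-like than in stromal-like cells (1.70 and -0.44) and 0.871 higher in mural-like than in stromal-like cells (0.43 and -0.44). For Hmgcs1 it was 0.689 higher in luteal-like than in glycolytic antral-like cells (0.46 and -0.23), 0.525 higher than in interstitial-like cells (-0.07) and 1.07 higher than in stromal-like cells (-0.61). For Acaca it was 0.966 higher in luteal-like than in mural-like cells (0.71 and -0.25). For Srebf1 it was 0.802 higher in mural-like than in luteal-like cells (0.18 and -0.62). With 1 library left out, the fold change of Cyp51 ran from 0.19 to 0.63 in mural-like and from -0.64 to -0.16 in stromal-like cells. That of Hmgcs1 ran from 0.22 to 0.68 in luteal-like, from -0.10 to -0.03 in interstitial-like and from -0.88 to -0.23 in stromal-like cells, and in glycolytic antral-like cells it was -0.10 with pathway genes kept among the features. For Acaca the range was 0.47 to 0.88 in luteal-like and -0.35 to -0.16 in mural-like cells, and for Srebf1 0.07 to 0.31 in mural-like and -0.90 to -0.34 in luteal-like cells. Apart from Cyp51 in luteal-like cells, none of these fold changes passed the threshold. For Hmgcs1 in interstitial-like cells the 4 libraries nearly coincided, at 445 ± 7.61 CPM.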

How the results depend on the processing

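With 2 libraries per group, the test found 0.0% to 46.0% of simulated 2-fold changes by class, so a member not called may still differ. The counts of Stard4, Dhcr7 and Insig1 were low in luteal-like cells. The standard error of the log2 fold change was larger only for Stard4 (0.59). Those of Dhcr7 (0.46) and Insig1 (0.40) lay inside the range of 0.36 to 0.46 of the other called members. These errors were derived as the size of the log2 fold change over the square root of its F statistic. Under another test (DESeq2), RLE size factors, no gene filter, doublets kept, pathway genes kept among the features, finer clusters or cells over 2000 UMIs, 0 members were called in GCs, in both GC subclasses and in theca-like, interstitial-like and stromal-like cells, and 7 to 10 in luteal-like cells. Leaving out 1 library at a time gave 6 to 10 members in luteal-like cells (6 without Fosl2cKO replicate 2), 0 to 3 in interstitial-like cells (3 without Fosl2F/F replicate 2) and 0 to 2 in stromal-like cells (2 without Fosl2cKO replicate 1). With the Runx2 cluster added to the luteal-like class, an alternative chosen after seeing the data, 0 members were called. The count over all genes in that grouping is not given here. In that grouping the cells tested differ, and in the others the cause was not tested.

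Among the members the text names, directions turned without Fosl2F/F replicate 1 for Fdps in interstitial-like cells (from -1.75 without Fosl2F/F replicate 2 to 0.38) and for Fads2 in theca-like cells (from -1.72 without Fosl2F/F replicate 2 to 0.0243). With all 4 libraries neither was called, and members that the text does not name were not followed one by one. Directions also turned for Stard4 in glycolytic antral-like cells when 1 library was left out (from -0.0520 without Fosl2F/F replicate 2 to 0.22 without Fosl2F/F replicate 1) and for Fads2 in stromal-like cells with doublets kept (-0.0885), with pathway genes kept among the features (-0.117) and with finer clusters (-0.123), from values near 0 that were not called. The member medians and signs without 1 library were added after seeing the data. The number of members highest in glycolytic antral-like cells among the GC subclasses was 20 to 24 over the alternatives, beside 21.

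Counts over all genes moved more. Without the gene filter 276 genes were called in GCs, 228 in mural-like, 620 in glycolytic antral-like, 781 in luteal-like, 165 in theca-like, 224 in interstitial-like and 0 in stromal-like cells. Leaving out 1 library gave 0 to 157 genes in GCs, 4 to 218 in mural-like, 0 to 142 in glycolytic antral-like, 506 to 1332 in luteal-like, 0 to 168 in theca-like, 70 to 620 in interstitial-like and 4 to 232 in stromal-like cells.

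Replicate numbers were shared by the groups but not shown to pair the libraries, since the correlation of deviations of same-numbered libraries ran from -0.20 in glycolytic antral-like to 0.12 in interstitial-like cells. With the replicate block 0 members were called in every class but luteal-like cells, where 8 were, and the genes called numbered 13 in GCs, 4 in mural-like, 1 in glycolytic antral-like, 797 in luteal-like, 24 in theca-like, 38 in interstitial-like and 13 in stromal-like cells. With crossed numbers, added after seeing the data for 4 classes, 0 members and 2, 272, 21 and 5 genes were called in GCs, mural-like, glycolytic antral-like and theca-like cells.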
